A study of Mus musculus with 4 samples.

Results

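The genes described here are 10 immediate early response genes: Egr1, Fos, Jun, Junb, Jund, Atf3, Ier2, Ier3, Dusp1 and Btg2. Their probe sets were taken by name, as those to which the annotation of the array gives exactly 1 gene symbol equal to one of the 10. No measured value was used to find the probe sets of a gene, but the 10 genes were chosen with earlier results of these data known. Where 1 probe set stands for a gene, it is the one with the highest mean signal. The rule found 13 probe sets of all 45101 on the array. Liver RNA came from male C57BL/6J mice that were 8 to 12 weeks old when the diets began and ate them for 20 weeks. The low-fat diet supplied 10% of energy as fat and the high-fat diet 45%, with palm oil in place of lard. In the last week the mice were injected into the peritoneal cavity with clodronate liposomes, which kill the phagocytes that engulf them, or with PBS. RNA from 8 mice per low-fat group and 10 mice per high-fat group, 36 mice in all, was pooled and hybridised as 1 array per group, so 4 arrays were made: low-fat with PBS, low-fat with clodronate, high-fat with PBS and high-fat with clodronate. The mice of a pool were merged before the measurement, so the spread between mice was not measured, and with PBS as the control the effects of liposomes, of clodronate and of phagocyte loss cannot be told apart. The study asked what Kupffer cells, which are liver macrophages, contribute to the accumulation of liver fat.

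Immediate early genes are transcribed within minutes of a growth factor, cytokine, hormone or stress signal and need no new protein for it, because the kinases and transcription factors that switch them on, such as ERK, JNK, p38, SRF with its ELK partners and CREB, are already present. EGR1 is a zinc finger transcription factor. FOS and the JUN proteins pair through leucine zippers to form AP-1, and ATF3 is a stress-induced relative of them. IER2 and IER3 are small early response proteins, DUSP1 is the phosphatase that switches MAP kinases off again, and BTG2 restrains cell division. In the liver this programme is known for its rapid induction after partial hepatectomy, injury, inflammation and feeding.

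Promoter sequence, from 250 bases before to 50 bases after the start, was at hand for 8 of the 10 genes, as RefSeq gives it for GRCm38.p6; Egr1 and Ier2 had no entry. The full cAMP response element, TGACGTCA, to which CREB and ATF proteins bind, was present in 2 of these 8, Dusp1 and Btg2, and in 1.79% of all 32851 promoters (both strands searched). The stretches that hold it are shown for these 2 genes, whose values are given further on. The element is in capitals and starts 143 bases before the start of Dusp1 (window chr17:26508553-26508672, minus strand) and 166 bases before that of Btg2 (window chr1:134079236-134079355, minus strand). The third stretch, from the Jun promoter (chr4:95052223-95052322, minus strand), has in capitals TGACATCA, an AP-1-like element known from this promoter and searched for after the other motifs. It starts 45 bases before the start, and 3.62% of all promoters hold it.
Dusp1: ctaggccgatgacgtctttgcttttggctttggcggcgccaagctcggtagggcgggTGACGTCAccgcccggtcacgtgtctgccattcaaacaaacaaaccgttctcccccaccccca
Btg2: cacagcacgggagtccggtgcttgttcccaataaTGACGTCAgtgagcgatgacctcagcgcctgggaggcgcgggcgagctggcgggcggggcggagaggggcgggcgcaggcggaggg
Jun: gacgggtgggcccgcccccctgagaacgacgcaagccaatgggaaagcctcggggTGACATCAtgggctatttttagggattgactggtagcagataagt
The shorter form TGACG, which overlaps the full element, was present in 5 of the 8 promoters (Atf3, Btg2, Dusp1, Fos and Junb) and in 20.8% of all. The CArG box, the AP-1 site TGAGTCA, and GCGGGGGCG or GCGTGGGCG, which EGR proteins bind, were in 0 of the 8 windows and in 1.63%, 5.2% and 3.47% of all promoters. A match describes letters only, and no match says nothing about elements outside the window, such as the known serum response element of Fos.

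The 4 arrays had similar distributions, with medians between 2.73 and 2.79 (log2 expression) and between 33.5% and 34.5% of probe sets at 4 or more. A signal under 4 was taken as too dim for a measurement, and a probe set was called measurable if any of the arrays had it at 4 or above, which 16298 did. Medians over these ran from 6.83 in the high-fat clodronate pool to 6.95 in the low-fat clodronate pool. Between these 2 pools the median difference was -0.09, and 32.5% of measurable probe sets were above 0. The 8 hepatocyte markers fixed for the check of the tissue were at 4 or more on every array. Kupffer cell markers were far lower with clodronate, as their summed signal went from 12.05 to 7.67 on the low-fat diet and from 11.88 to 7.82 on the high-fat diet (log2), and the number of the 8 markers at 4 or more went from 8 to 1 and from 6 to 2. Of these 8 markers 7 fell with clodronate in the additive limma model described further on, as did 9 of 10 pan-macrophage markers, where 0.442% of all measurable probe sets fell. Without the mean-dependent prior in that model, 3 of 8 and 3 of 10 fell. In whole liver, fewer cells of a type and less RNA per cell cannot be told apart.

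Fos, Atf3 and Ier3 were not measurable in any pool. The Fos probe set lay between 2.74 and 3.02 (log2) on the 4 arrays, that of Atf3 between 2.84 and 2.98, and that of Ier3 between 2.98 and 3.26. The second probe sets of Jund (at most 2.20) and Btg2 (at most 2.93) were below 4 as well. This left 8 of 13 probe sets and 7 of 10 genes, Egr1, Jun, Junb, Jund, Ier2, Dusp1 and Btg2, and each of these 8 was at 4 or more on all 4 arrays. For the dim members a difference was not detectable at this signal, which does not show that the transcript was absent.

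**Figure D1:**
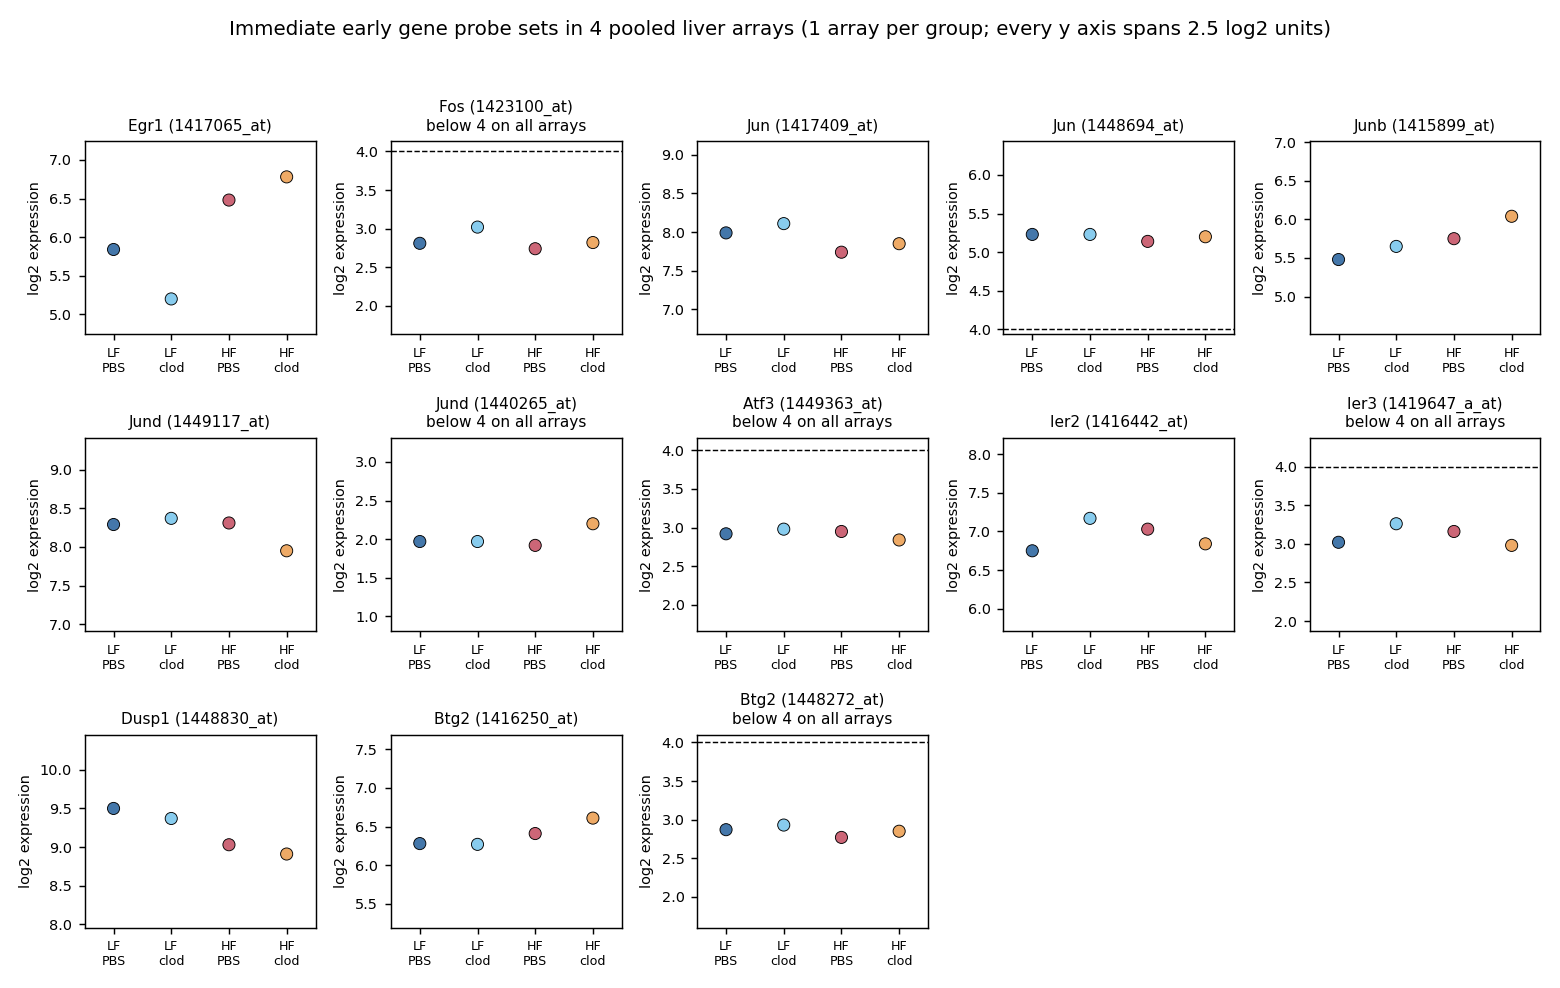
Log2 expression of the 13 probe sets of the 10 genes (vertical axes, all 2.5 log2 units high) in the 4 pools, each point 1 array, with a dashed line at the floor of 4 where it falls in the panel. Egr1 spans 5.20 to 6.78, the other measurable probe sets move far less, and the probe sets of Fos, Atf3 and Ier3 lie below the floor.

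Egr1 had the widest range of the members. Its probe set, 1417065_at, was at 5.84 (log2) in the low-fat PBS pool, 5.20 in the low-fat clodronate pool, 6.48 in the high-fat PBS pool and 6.78 in the high-fat clodronate pool. Both high-fat pools were thus above both low-fat pools, and the lowest and the highest value were those of the 2 clodronate pools. The share of all measurable probe sets whose high-fat and low-fat pools separate in this way was not counted. Such an order is therefore given as a description only, here and for the genes below. From lowest to highest the signal spanned 2.99-fold, a range wider than in 99% of measurable probe sets, whose median range was 0.32 (log2).

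Clodronate went with lower Egr1 on the low-fat diet and with slightly higher Egr1 on the high-fat diet. The difference was -0.64 (log2), 1.56-fold lower, on the low-fat diet, a size reached by 2.91% of measurable probe sets. On the high-fat diet it was 0.29, 1.23-fold higher, a size that 18.1% reached. The difference between these differences was 0.93 (log2), below the 1 (log2) used as the threshold for it, and 2.33% of measurable probe sets had this size or more. No replicate array exists to say how much of this is array noise. Kupffer cell markers were lower with clodronate on both diets, and the part of Kupffer cells in the Egr1 values was not tested.

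The high-fat diet went with higher Egr1 under both injections. The difference was 0.65 (log2), 1.56-fold, with PBS, and 1.58, 2.99-fold, with clodronate. The latter was larger than in 99.7% of measurable probe sets. The diet and clodronate comparisons of Egr1 share arrays, so that the low value of the low-fat clodronate pool enters both the clodronate difference on the low-fat diet and the diet difference under clodronate.

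Among the AP-1 genes, the 3 Jun family members did not move alike. Junb, the family member that often opposes JUN in growth control, was at 5.48 (log2) in the low-fat PBS pool, 5.65 with low-fat and clodronate, 5.75 with high-fat and PBS and 6.04 with high-fat and clodronate. Both high-fat pools were above both low-fat pools, and each clodronate pool was above the PBS pool of its diet. How many of all measurable probe sets have such an order was not counted. Its differences were 0.17 and 0.29 for clodronate with low-fat and with high-fat feeding, and 0.27 and 0.39 for the high-fat diet with PBS and with clodronate. In the same order, 37.5%, 18.3%, 22.1% and 17.4% of measurable probe sets had differences of this size or more.

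Jun, the founding AP-1 partner and the main target of the kinase JNK, was lower on the high-fat diet by its brighter probe set. Probe set 1417409_at was at 7.99, 8.11, 7.74 and 7.85 (log2) in the low-fat PBS, low-fat clodronate, high-fat PBS and high-fat clodronate pools. Both low-fat pools were above both high-fat pools, and the diet difference was -0.26 with each injection, 1.2-fold lower. This size was reached by 23.8% of measurable probe sets with PBS and 32.2% with clodronate. The dimmer Jun probe set, 1448694_at, stayed between 5.14 and 5.23 on the 4 arrays, with diet differences of -0.09 and -0.03, so that the 2 probe sets shared the direction but not the size. The promoter element TGACATCA shown above belongs to this gene.

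Jund, the family member that is present without stimulation in many tissues, was at 8.29, 8.37 and 8.31 (log2) in the low-fat PBS, low-fat clodronate and high-fat PBS pools, and at 7.95 in the high-fat clodronate pool. The high-fat clodronate pool thus differed by -0.36 from the high-fat PBS pool and by -0.42 from the low-fat clodronate pool. Sizes of this kind or more were reached by 12.1% and 15.4% of measurable probe sets. After centring of each array the 2 differences were -0.31 and -0.33. The other differences of Jund were 0.08 for clodronate on the low-fat diet and 0.03 for the diet with PBS.

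Dusp1, which dephosphorylates and so switches off p38, JNK and ERK, was lower on the high-fat diet under both injections. It was at 9.50 (log2) in the low-fat PBS pool, 9.37 in the low-fat clodronate pool, 9.03 in the high-fat PBS pool and 8.91 in the high-fat clodronate pool. Both low-fat pools were above both high-fat pools. The diet difference was -0.48 with PBS and -0.46 with clodronate, 1.39-fold and 1.38-fold lower, and the clodronate differences were -0.14 and -0.12. Among measurable probe sets, 7.05% had a diet difference of this size or more with PBS and 12.8% with clodronate.

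Btg2, an antiproliferative gene that also responds to p53, differed the other way with diet. It was at 6.28, 6.27, 6.41 and 6.61 (log2) in the low-fat PBS, low-fat clodronate, high-fat PBS and high-fat clodronate pools. Its diet differences were 0.13 with PBS and 0.34 with clodronate, sizes that 51.6% and 22.4% of measurable probe sets reached. Dusp1 and Btg2 are the 2 genes with the full cAMP response element shown above. Their diet differences had opposite signs on these arrays, but neither gene passed for diet in the main limma fit (Benjamini-Hochberg adjusted p = 0.157 and 0.651). The part of the element in these values was not tested.

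Ier2, whose protein is thought to act in the nucleus as a transcriptional regulator, was highest in the low-fat clodronate pool. It was at 6.75 (log2) in the low-fat PBS pool, 7.17 with low-fat and clodronate, 7.03 with high-fat and PBS and 6.84 with high-fat and clodronate. Clodronate went with a higher value on the low-fat diet, with a difference of 0.42, and with a lower one on the high-fat diet, with a difference of -0.18. These sizes were reached by 9.27% and 33.5% of measurable probe sets. The low-fat clodronate pool, where Ier2 was highest, was the one where Egr1 was lowest. Neutrophil markers were at 4 or more in that pool alone, for 2 of the 6 on the array (S100a8 at 4.15 and S100a9 at 4.05), and their part in the value of Ier2 was not tested.

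**Figure D2:**
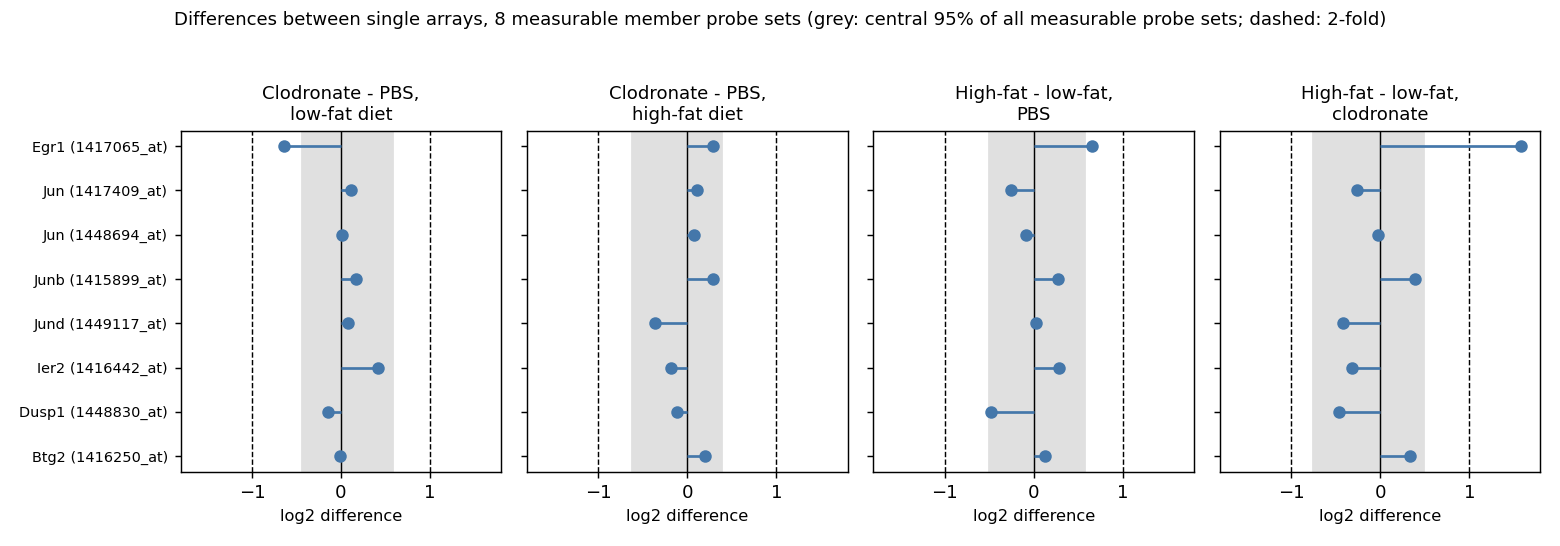
Log2 differences between single arrays (horizontal axes) of the 8 measurable member probe sets in the 4 comparisons, with the central 95% of all measurable probe sets in grey and 2-fold as dashed lines. Egr1 passes 2-fold in 1 comparison, the diet under clodronate at 1.58, and the other points stay inside it.

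Counted over the measurable member probe sets, clodronate on the low-fat diet went with 0 of 8 that were 2-fold or more higher and 0 of 8 that were 2-fold or more lower, where 0.252% and 0.515% of all measurable probe sets were. The 7 genes ran from -0.64 for Egr1 to 0.42 for Ier2, with 4 above 0, and had a median of 0.08 beside 0.05 over all measurable probe sets. On the high-fat diet the counts were again 0 and 0 of 8, against 0.11% higher and 0.657% lower among all. The genes ran from -0.36 for Jund to 0.29 for Egr1, with a median of 0.11 beside -0.04. With so small a background, counts of 0 among 8 say little about these genes.

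The diet under PBS likewise gave 0 and 0 of 8, where 0.362% of all measurable probe sets were 2-fold or more higher and 0.27% lower. The 7 genes ran from -0.48 for Dusp1 to 0.65 for Egr1, and 5 of them were above 0. Under clodronate the count was 1 of 8 higher, Egr1, and 0 of 8 lower, against 0.38% and 0.853% of all measurable probe sets. Over all probe sets this split depended on scaling, from 62 higher and 139 lower as deposited to 76 and 96 after centring of each array and 85 and 87 after quantile normalization. The 7 genes had a median of 0.13 with PBS, beside 0 for all measurable probe sets, and of -0.26 with clodronate, beside -0.09. Differences between the clodronate differences reached 1 (log2) in 0 of 8 members, against 1.79% of measurable probe sets in either direction.

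**Figure D3:**
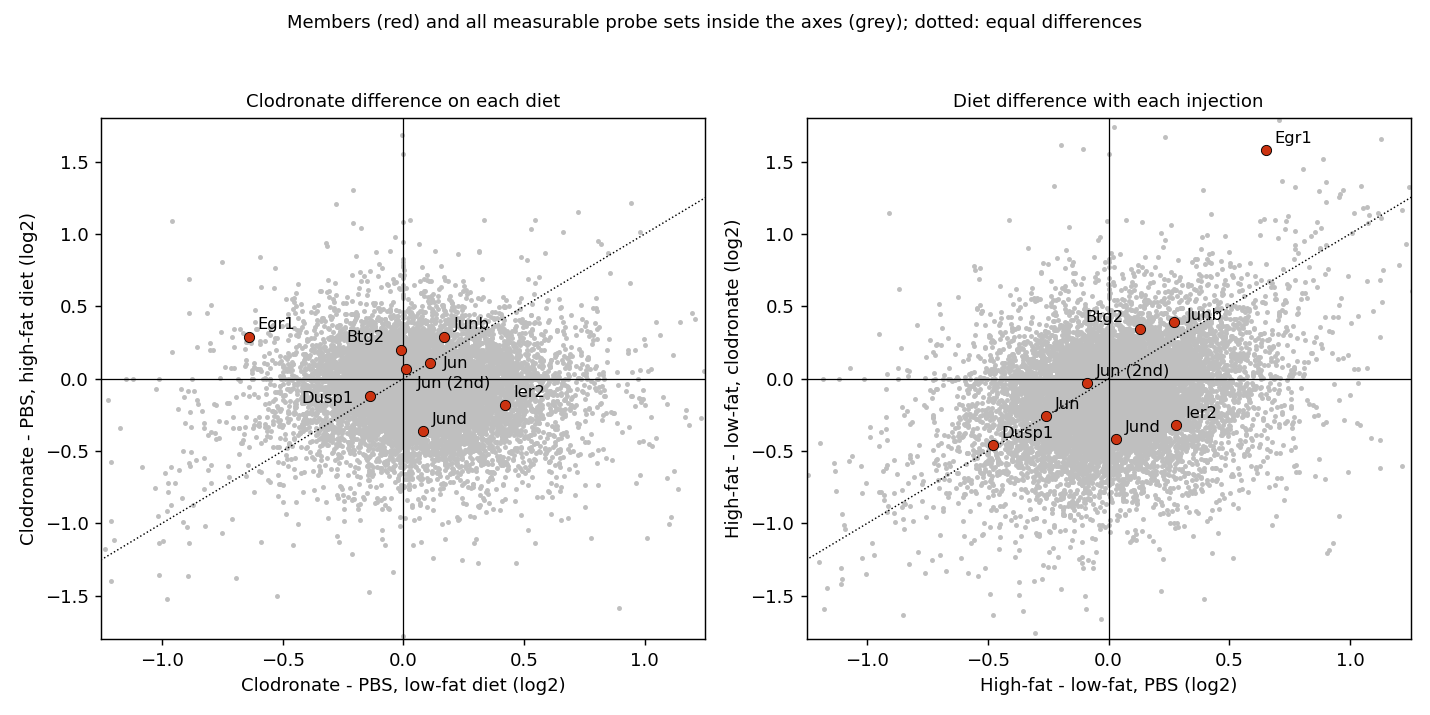
Left, the clodronate difference on the low-fat diet (horizontal, log2) against that on the high-fat diet (vertical, log2); right, the diet difference with PBS against that with clodronate, for the 8 member probe sets (red, the dimmer Jun probe set marked 2nd) and all measurable probe sets within the axes (grey). Egr1 lies at -0.64 and 0.29 on the left and at 0.65 and 1.58 on the right, and Dusp1 and both Jun probe sets lie near the dotted line of equal diet differences.

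An additive limma model of injection and diet, fitted over all 16298 measurable probe sets, gave each effect as a mean over both settings of the other factor. Its p-values do not reflect the spread of mice. The fit leaves 1 residual degree of freedom. This holds array-to-array spread, possibly technical, together with any dependence of the clodronate difference on diet. For Egr1 the difference between the clodronate differences was 0.93 and for Dusp1 it was 0.02 (log2). For clodronate, 0 of 8 member probe sets passed a Benjamini-Hochberg adjusted p of 0.05 in either direction, and 0 had an unadjusted p under 0.05 (3.82% of all measurable probe sets did), while 0.0123% of all probe sets rose and 0.442% fell. For the diet 0 of 8 passed as well, where 0.147% rose and 0.178% fell. Over all probe sets these were 24 that rose and 29 that fell as deposited, 104 and 73 after centring of each array, and 120 and 86 after quantile normalization. At an unadjusted p under 0.05 there were 2 of 8 members, Dusp1 and Egr1, against 10.7% of all measurable probe sets.

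Egr1 was higher by 1.11 ± 0.66 on the high-fat diet (log2; SD of the differences under the 2 injections, n = 2; Benjamini-Hochberg adjusted p = 0.224 in limma). Dusp1 was lower on it, with a mean difference of -0.47 ± 0.01 (SD, n = 2; Benjamini-Hochberg adjusted p = 0.157 in limma). Neither passed. Both injections gave the same direction for each, as they did for Jun, Junb and Btg2. The share of all measurable probe sets with agreeing directions was not counted. Fitted on 1 probe set per gene, that is 8650 genes, limma with Benjamini-Hochberg adjustment called both, with adjusted p = 0.0472 for Egr1 and 0.0443 for Dusp1, where 0.867% of genes rose and 0.821% fell. Both fits gave the same effects and differed in the features that share the variance estimate and the adjustment. Junb had a mean diet difference of 0.33 ± 0.09 (SD, n = 2; Benjamini-Hochberg adjusted p = 0.551 in limma) and Jun of -0.26 ± 0.00 (SD, n = 2; Benjamini-Hochberg adjusted p = 0.487 in limma).

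The other immediate early genes, a list of 33, had 21 measurable genes, and these did not move together. Their medians were 0.07 and -0.04 for clodronate with low-fat and with high-fat feeding, and 0.05 and -0.03 for the diet with PBS and clodronate, close to the medians over all measurable probe sets of 0.05, -0.04, 0 and -0.09. In limma 0 passed for clodronate and 0 for diet, with 0 and 3 at an unadjusted p under 0.05. Over all measurable probe sets 3.82% and 10.7% had such a p, which is the background for the lists below as well. Klf6, a zinc finger factor, was at 5.61 in the low-fat PBS pool and 4.69 in the low-fat clodronate pool, a difference of -0.92 in the direction of Egr1. Phlda1 and Plk3 differed the other way in this comparison, by 0.63 each. Of the 21 genes 13 were above 0 in it and 7 below. Gadd45g, a growth arrest gene, was lower by 2.01-fold on the high-fat diet under clodronate, from 7.16 to 6.16. Socs3, the feedback inhibitor of STAT3 signalling, was higher by 0.63 on the high-fat diet with PBS, and Nr4a1, an orphan nuclear receptor, was at 4.70, 4.37, 4.23 and 4.15.

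Genes upstream of the programme, kinases of the MAP kinase cascades and the factors SRF, ELK and CREB, were near 0, with medians between -0.04 and 0.08 over the 4 comparisons for 18 measurable genes. None passed in limma for clodronate or diet (1 and 3 at an unadjusted p under 0.05). Egfr, the epidermal growth factor receptor, was at 11.08, 11.34, 10.54 and 10.86, with diet differences of -0.54 and -0.48 (limma with Benjamini-Hochberg adjustment, adjusted p = 0.0732). Fitted on 1 probe set per gene, Egfr was the single member of the list to fall. Creb1, whose product binds the element found in the Dusp1 and Btg2 promoters, had diet differences of -0.33 and -0.43 (limma with Benjamini-Hochberg adjustment, adjusted p = 0.38).

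Partners of AP-1 and other leucine zipper factors gave 12 measurable genes, with 0 passing in limma for either factor. At an unadjusted p under 0.05, in either direction, there were 2 of 12 for clodronate and 7 of 12 for diet. The shares of all measurable probe sets were 3.82% and 10.7%. Fosl2, a FOS relative, was at 4.56, 5.23, 4.11 and 4.22, so both high-fat pools were below both low-fat pools, with diet differences of -0.45 and -1.01. Cebpb, a factor of the acute phase response, was at 10.26, 10.42, 10.58 and 10.88, in the same order as Junb, and it rose with diet in the fit on 1 probe set per gene. Feedback inhibitors and relatives of Btg2 gave 10 measurable genes, with 0 passing and 1 and 1 at an unadjusted p under 0.05. Nab2, a corepressor of EGR1 whose gene EGR1 is known to induce, was at 5.74, 5.65 and 5.69 in the first 3 pools and at 6.18 in the high-fat clodronate pool, the pool in which Egr1 was also highest.

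The 8 measurable p53 target genes had medians of -0.12 and 0.11 for clodronate with low-fat and with high-fat feeding, and of 0.04 and 0.31 for the diet with PBS and clodronate, with 0 passing in limma and 0 and 2 at an unadjusted p under 0.05. The 7 glucocorticoid-responsive genes, fixed because glucocorticoids induce Dusp1, had medians between -0.03 and 0.25, with 0 passing and 0 and 2 at an unadjusted p under 0.05. Tsc22d3, a classical glucocorticoid target, was at 10.30, 9.84, 10.35 and 10.45, and Fkbp5, another, at 5.26 in the low-fat PBS pool and between 6.17 and 6.29 in the others. Sgk1, a kinase gene of the list, was at 9.28, 9.02, 9.01 and 8.99, so its high-fat pools were below both low-fat pools as for Dusp1, with the nearest values almost equal.

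Some clock genes rose with the diet that also separated the Egr1 values. Of 16 measurable clock and clock output genes 2 rose with the high-fat diet in limma, Usp2 (2.51; Benjamini-Hochberg adjusted p = 0.0363) and Dbp (1.32; limma, Benjamini-Hochberg adjusted p = 0.015), and 0 fell. The list did not move one way. Diet differences were above 0 in 12 genes and below 0 in 4 with PBS, and in 12 and 3 with clodronate. Cry1 differed by -1.28 (log2) with PBS, from 7.29 to 6.01. Fitted on 1 probe set per gene, 5 rose (Per3, Dbp, Tef, Ciart and Usp2), and without the mean-dependent prior 0 did. All 16 had an unadjusted p under 0.05, in either direction, beside the 10.7% of all measurable probe sets, and 14 did without the mean-dependent prior. Usp2 was at 6.15, 5.39, 8.12 and 8.44, with its lowest and highest values in the same pools as Egr1. The hour at which livers were taken is not given in the sources used here, and the part of the clock genes in the Egr1 and Dusp1 values was not tested.

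**Figure D4:**
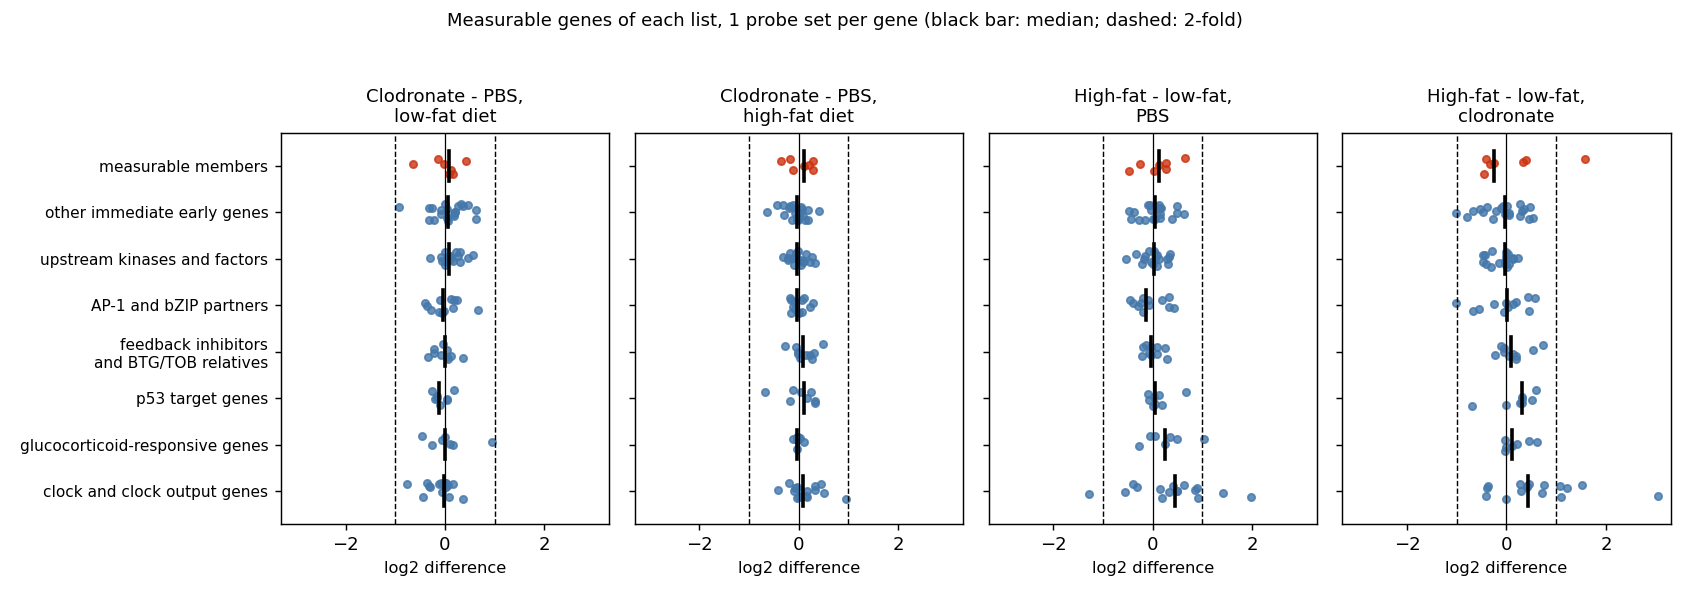
Log2 differences (horizontal axes) of every measurable gene of each list, 1 probe set per gene, in the 4 comparisons, with the median as a black bar and 2-fold as dashed lines. Medians of the members and of most lists lie near 0, and the clock list has medians of 0.45 and 0.44 in the diet comparisons.

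The genes whose values across the pools were most like those of Egr1 were found by the Euclidean distance between the 4 values of each gene, after its own mean was subtracted, over 8643 other genes. They were Arrdc2, Kcnk5, 1700037H04Rik, Clec2h and Krt23, at distances between 0.19 and 0.29 (log2). Kcnk5, a potassium channel gene, was at 6.99, 6.39, 7.70 and 7.76. Arrdc2, an arrestin domain gene, was at 4.22, 3.55, 4.99 and 5.02, partly under the floor. In the low-fat clodronate pool 1700037H04Rik (3.42), Clec2h (3.83) and Krt23 (3.56) were under the floor too. The distances used the values as deposited, so for these genes they rest partly on signal too dim for a measurement. The distance rests on 4 arrays and describes these arrays only.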

How the data were processed

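The authors deposited log2 values for 45101 probe sets on 4 arrays. The submitters' processing notes name GCRMA 2.24.1, a method that models background from probe sequence, equalises the arrays' distributions and summarises each probe set, so values near the background are pulled together and small differences there are not reliable. The values were used as deposited. The platform annotation gave 34958 probe sets 1 symbol and 932 several, and 9211 were not listed. Where a gene had several probe sets, the one with the highest mean stood for it. Pairwise differences were taken after values below 4 were set to 4. Calls were 2-fold or more, without a p-value, since each group was 1 array. Averaged effects came from limma 3.58.1 under R 4.3.3 (eBayes with a mean-dependent prior, Benjamini-Hochberg over 16298 probe sets, 1 residual and 4.9 prior degrees of freedom), with values as deposited. The script was tested on simulated data. Python 3.11.15 with pandas 2.3.3 and numpy 2.4.6 served for the rest.

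The members and the 16 gene lists (7 of pathways, 9 of cell type markers) were chosen with earlier results of these data known. Named were all members and, per list and comparison, at most 4 genes with the largest difference. Some listed genes are not analysed here. The summed signal of the marker lists is the log2 of the sum of linear values. That of sinusoidal endothelial, stellate, lymphocyte, cholangiocyte and erythroid markers is given in the closing section.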

Additional observations from a re-analysis of the deposited data

Results flagged for a closer look

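Several members had differences of opposite sign in the 2 settings of the other factor, with 1 array per group, so none of these contrasts was tested. The share of all measurable probe sets with opposite signs was not counted. Of all measurable probe sets, 60.3% had a clodronate difference above 0 on the low-fat diet and 36.7% on the high-fat diet. For the diet difference these shares were 48.6% with PBS and 32.5% with clodronate. Egr1 differed with clodronate by -0.64 on the low-fat diet and by 0.29 on the high-fat diet. Ier2 did the reverse, with clodronate differences of 0.42 on the low-fat diet and -0.18 on the high-fat diet, and its diet difference was 0.28 with PBS and -0.32 with clodronate. Jund had clodronate differences of 0.08 with low-fat and -0.36 with high-fat feeding, and diet differences of 0.03 with PBS and -0.42 with clodronate. Of these the 0.08 and the 0.03 were close to 0. Btg2 had clodronate differences of -0.01 and 0.20, the first of them close to 0.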

How the results depend on the processing

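The 28 differences of the 7 measurable genes in the 4 pairs of arrays kept their sign in all 5 alternatives. These were a floor of 3 or 5 in place of 4, centring of each array, quantile normalization, and the mean of a gene's probe sets. The measurable probe sets of these genes were above 5 on all 4 arrays, so the floors could not change these differences. The mean of probe sets changed those of Jun only. For the other genes, only centring and quantile normalization could change a sign. The 2-fold call of Egr1 for the diet under clodronate was kept in each, at 1.58 to 1.72, but only centring and quantile normalization could change it. The Egr1 difference between the clodronate differences passed 1 (log2) after centring (1.03) and after quantile normalization (1.10), so that the count of members past it went from 0 to 1 in both. The median of the member genes for clodronate on the high-fat diet was 0 with a floor of 3, which admits Fos and Ier3, and that for the diet under clodronate was -0.15 with the mean of probe sets. In limma the count of members called for diet went from 0 to 2, Egr1 and Dusp1, when 1 probe set per gene was fitted. It stayed at 0 in the other 7 alternatives. In these the limma adjusted p lay between 0.105 and 0.736 for Egr1 and between 0.0676 and 0.64 for Dusp1. For clodronate the count was 0 throughout. Over all probe sets, limma called 74 for clodronate and 53 for diet in the main setting, 11 and 0 without the mean-dependent prior, and 94 and 146 genes with 1 probe set per gene. Other totals, for clodronate and diet, were 86 and 106 with robust hyperparameters, 24 and 41 with probe sets at 4 or more on all arrays, 23 and 0 without a filter, 91 and 177 after centring, 96 and 206 after quantile normalization, and 46 and 22 with values below 4 set to 4. No paired analysis was possible because each group was 1 pooled array, and leaving out an array leaves no residual degree of freedom. The number of arrays and the dim signal of Fos, Atf3 and Ier3 limit what could be measured.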

Other observations

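The summed signal of the other cell type markers, as the log2 of the sum of linear values over all listed genes on the array, included those below 4. Sinusoidal endothelial markers were at 11.55, 11.68, 11.56 and 11.56 in the low-fat PBS, low-fat clodronate, high-fat PBS and high-fat clodronate pools, and stellate cell markers at 10.80, 10.91, 10.83 and 10.85. Hepatocyte markers lay between 16.77 and 16.80. Neutrophil markers were at 4.70, 5.67, 4.89 and 5.12, with the highest value in the low-fat clodronate pool, where alone 2 of 6 were at 4 or more. Lymphocyte markers were at 6.58, 7.09, 6.70 and 7.48, higher in each clodronate pool than in the PBS pool of its diet. Their single measurable gene, Ighm, was at 6.14, 6.80, 6.25 and 7.26, and so 2.02-fold higher with clodronate on the high-fat diet. Cholangiocyte markers were at 5.57, 5.39, 5.54 and 5.40 and erythroid markers at 9.21, 9.21, 9.51 and 9.35, each with 1 measurable gene, Sox9 (between 3.79 and 4.42) and Alas2 (between 9.15 and 9.47). Pan-macrophage markers went from 12.44 to 9.94 on the low-fat diet and from 12.33 to 9.96 on the high-fat diet.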
